A study of Mus musculus with 16 samples.

Results

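Mouse oocytes receive their DNA methylation late. Methylation is written de novo by DNMT3A with its cofactor DNMT3L while the oocyte grows inside the follicle, and it is laid down mostly over transcribed gene bodies, so that the finished oocyte genome alternates between highly methylated and nearly unmethylated domains. The CpG-rich control regions of maternally imprinted genes gain their mark in the same period, because they lie inside oocyte transcription units. In vitro follicle culture moves the later part of this growth, from the preantral follicle on, out of the ovary, and oocytes of naturally ovulating adult females are the untreated reference to which such oocytes are set here.

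CpG methylation was compared between 4 libraries of oocytes from in vitro follicle culture (IFC) and 3 libraries of naturally ovulated oocytes (in vivo, IV), which are 7 of the 16 post-bisulfite adapter tagging (PBAT) libraries of the series. Every library was made from 1 pool of metaphase II (MII) oocytes of F1 females of C57BL/6J X CBA/Ca, the stage at which an ovulated oocyte waits for fertilisation. The IFC oocytes grew in preantral follicles that had been isolated from prepubertal females and cultured individually in medium with serum, insulin, transferrin, selenium and recombinant follicle-stimulating hormone, followed by an ovulatory stimulus of recombinant human chorionic gonadotropin and epidermal growth factor. Their labels give an age of 23 days, which includes the days in culture. The IV oocytes came from oestrous females of 10 weeks that received no hormone injection and whose cycles had been synchronised by contact with male scent. Age of the female, in vitro growth and hormones in the medium therefore differ together between IFC and IV and cannot be told apart in this comparison. The other 9 libraries, 5 from superovulated prepubertal females of 23 days (SO) and 4 from superovulated adults of 10 weeks (SOA), took no part in any call between IFC and IV. They were used only to place the called regions, since SO shares the age label of IFC, and SOA shares the age of IV.

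The IFC libraries held 5311009 to 8231898 calls, a call being 1 read of 1 CpG position, and the IV libraries held 15644144 to 17275310. Depth thus separates the groups completely, and the calls of all libraries are reads without molecular identifiers. The genome was divided into fixed, non-overlapping bins of 10 kb on the 19 autosomes, and 164811 bins had at least 10 calls in each of the 7 libraries. The median such bin held 33 calls in an IFC library and 71 in an IV library. The level of a bin in a library is the percentage of its calls that were methylated. Across bins, Pearson's r was 0.935 to 0.954 between IFC libraries, 0.964 to 0.974 between IV libraries and 0.926 to 0.949 between an IFC and an IV library, which describes bins and not replicates.

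IV1 stands apart from the other IV libraries and is therefore treated separately throughout. Promoters of germline genes such as Dazl, an RNA-binding protein of germ cells, and Ddx4, the germ-cell helicase Vasa, are unmethylated in oocytes and methylated in somatic cells such as the cumulus cells that surround an oocyte. Over the promoters of 12 such genes (500 bp on each side of the gene start), 83 of 482 calls were methylated in IV1, which is 17.2% (95% Wilson interval 14.1 to 20.8%, counting error only). The same promoters stood at 5.75% in IV2 and 2.95% in IV3, at 1.79 to 5.14% in the IFC libraries, and at 0.645 to 7.89% in the SO and SOA libraries. In IV1, Dazl stood at 39.4% and Ddx4 at 39.1%, whereas Tdrd1 and Sycp3 were at 0. Bins below 20% methylation made up 33.0% of the bins in IV1, 43.9% in IV2, 44.4% in IV3 and 40.9 to 42.6% in the IFC libraries. The part of IV1's higher level at these promoters in any result below was not tested, and the counts of called bins, genes and CpG-dense regions are given with and without this library.

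Marks that define an oocyte were present in both groups. The regions of H19 and Meg3 that carry paternal imprints are unmethylated in oocytes, and they stood at 0 to 5.80% in IFC and 0.680 to 6.99% in IV. Of the windows of 1 kb on each side of the start of 14 maternally imprinted transcripts, 11 were methylated in every library that covered them, with a median of 96.2% and a lowest value of 81.8% in IFC, and a median of 94.2% and a lowest value of 61.1% in IV. That lowest value was Peg10 in IV1, and without IV1 the lowest was 66.7%, again at Peg10. Peg3, a zinc-finger gene expressed from the paternal copy, stood at 96.2%, 92.6%, 95.7% and 100% in IFC1 to IFC4 and at 77.1%, 90.3% and 94.2% in IV1 to IV3. The windows at the annotated starts of Plagl1 and Impact were at 0 to 5.68% in all 7 libraries and Mest ranged from 0 to 75%. The ends of the Mest range were IFC2 on 2 calls and IFC4 on 4 calls, and Impact had 2 calls in IFC4. The windows at Plagl1, Impact and Mest follow the gene start in the annotation and may not hold the imprinted region of those 3 genes.

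The total level of methylation did not separate the groups. Of all autosomal CpG calls, 43.5%, 42.3%, 41.9% and 37.5% were methylated in IFC1 to IFC4, and 43.1%, 38.6% and 38.8% in IV1 to IV3. The mean was 41.3% ± 2.63 (SD, n = 4) for IFC against 40.2% ± 2.54 (SD, n = 3) for IV, a difference of 1.06 percentage points within the spread between libraries (two-sided exact permutation test over 35 assignments, p = 0.571). Without IV1 the difference was 2.53 points (exact permutation p = 0.333, where 0.0667 is the smallest value that 4 libraries against 2 allow).

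The landscape of low and high domains was also shared. Bins were sorted by their mean over the SO and SOA libraries into unmethylated (below 20%), intermediate and methylated (above 80%) classes, so that the class did not depend on the values compared. Methylated bins averaged 91.6% ± 1.20 over the 4 IFC libraries and 90.6% ± 1.45 over the 3 IV libraries (difference 0.988 points, exact permutation p = 0.371, and 0.161 points without IV1, exact permutation p = 1). Intermediate bins stood at 45.8% ± 2.11 in IFC and 46.4% ± 2.16 in IV (difference -0.643 points, exact permutation p = 0.743), and without IV1 the direction turned to 0.602 points (exact permutation p = 0.867). Unmethylated bins stood at 9.42% ± 0.403 in IFC and 10.7% ± 4.60 in IV, a difference of -1.28 points (exact permutation p = 0.857), and the wide spread in IV was IV1 at 16.0% against 8.44% and 7.67% in IV2 and IV3. Without IV1 the direction turned here too, since all 4 IFC libraries (8.95 to 9.76%) then lay above both IV libraries, by 1.37 points on average (exact permutation p = 0.0667, the smallest possible). The plot of library levels shows IV1 alone at the top of the unmethylated bins and of the germline gene promoters.

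**Figure D1:**
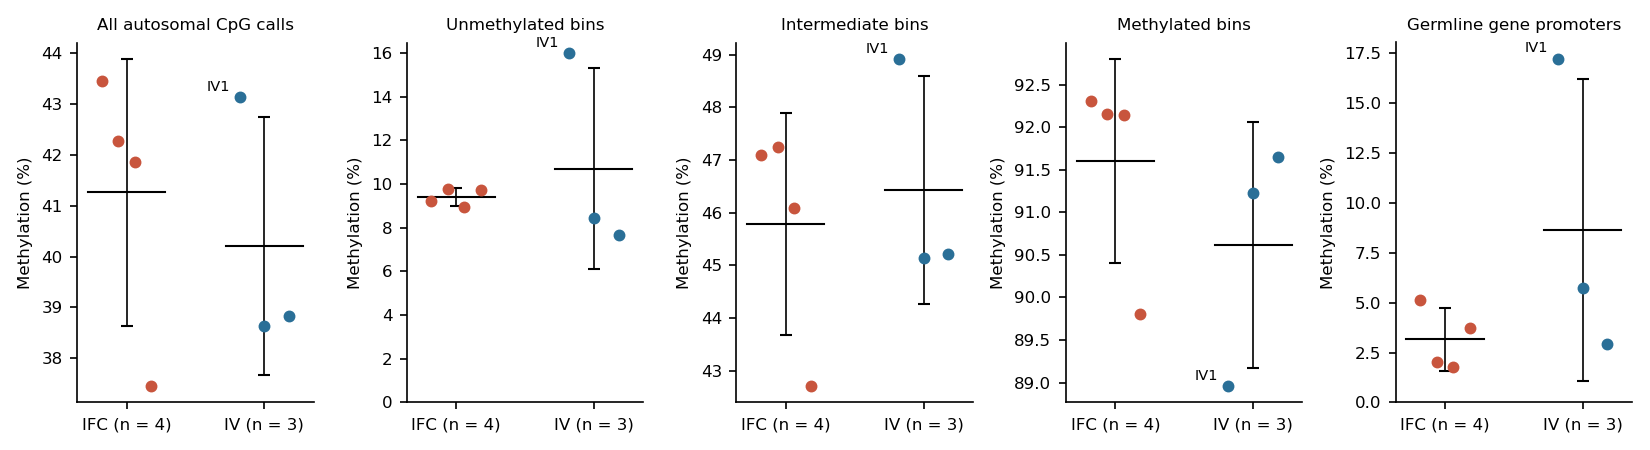
Methylation (%) of each IFC and IV library over all autosomal CpG calls, over 10-kb bins that are unmethylated, intermediate or methylated in SO and SOA, and over 12 germline gene promoters. Points are libraries, horizontal lines are group means and bars are SD, and the vertical axes of the total, intermediate and methylated panels do not start at 0. IV1 lies at 16.0% in unmethylated bins and at 17.2% in germline gene promoters, above all other libraries shown.

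Local differences between IFC and IV were found in both directions. A bin was called when a logistic model of its methylated and unmethylated calls gave a Benjamini-Hochberg adjusted p under 0.05 and the group means differed by at least 20 points. The model alone passed 20251 bins (12.3% of the bins tested). With the limit of 20 points, 3692 bins (2.24%) were lower in IFC and 2493 (1.51%) were higher in IFC. Without IV1, 3307 bins (2.01%) were lower and 3195 (1.94%) were higher, so that the surplus of lower bins shrank. Of the bins called with all libraries, 2924 of the lower and 2240 of the higher were called again without IV1, and 0 bins were called in opposite directions.

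In the logistic test every call counts as an independent draw. Libraries of a group scattered more than such draws would, with a median dispersion of 1.65 over bins. Independent draws give a mean near 1 and a median below that. A test on the 7 library percentages, limma, which does use the spread between libraries, called 1293 bins (0.785%) lower and 719 (0.436%) higher at the same limits. Between the tests 1292 of the lower and 716 of the higher bins were shared. Without IV1 limma called 315 bins (0.191%) lower and 207 (0.126%) higher, and without IV2 or IV3, which likewise leaves 2 IV libraries, it called 348 or 470 lower and 154 or 188 higher. A quasi-binomial F test that estimates the dispersion of each bin by itself left 2 lower bins and 1 higher bin, and with dispersions squeezed across bins it left 1976 and 1169. The number of called bins thus rests on how the spread between libraries is treated, and thinning of the 7 libraries to the depth of IFC2, the shallowest of them, left 2813 lower and 1937 higher bins.

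**Figure D2:**
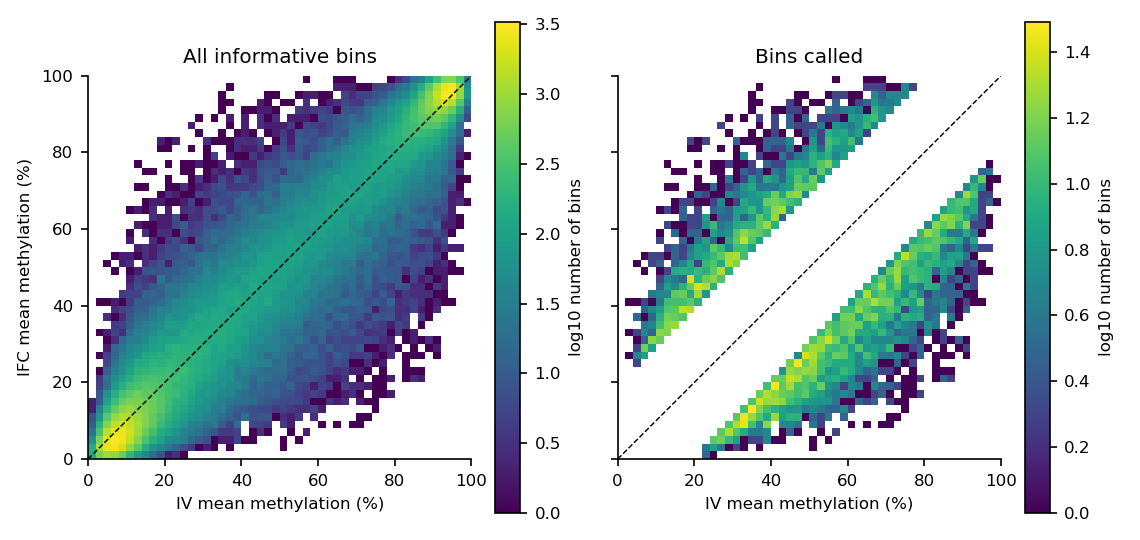
Mean methylation (%) of 10-kb bins in IV (horizontal axis) and IFC (vertical axis), with colour for the log10 number of bins in each square of 2 by 2 points and a dashed line of equality. All 164811 bins lie mainly along the line with peaks near 0 and 100%, and the called bins, 3692 below and 2493 above the line, lie mostly at intermediate levels. The limit of 20 points favours such levels by construction.

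The called bins came mostly from the part of the genome that is neither fully methylated nor unmethylated. In SO and SOA, 84.8% of the lower bins and 87.9% of the higher bins were intermediate, against 30.3% of all bins. The limit of 20 points favours such bins by construction. A lower call needs at least 20% in IV, and a higher call needs at most 80% in IV. Bins near the same end of the scale in both groups could therefore not be called. Whether changes prefer intermediate bins beyond this limit was not tested. Among the lower bins 11.5% were methylated and 3.77% unmethylated in SO and SOA, and among the higher bins 3.66% were methylated and 8.44% unmethylated. The directions differed in their place relative to genes. Protein-coding genes overlapped 44.3% of the lower bins, 70.2% of the higher bins and 55.3% of all bins, and a gene start lay within 1 kb of 4.31% of the lower, 12.7% of the higher and 11.5% of all bins. CpG number hardly differed, with a median of 83 per lower bin and 90 per higher bin and per bin overall. These shares are descriptions of the called bins and carry no test.

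Some called bins lay side by side and others alone. Of the lower bins, 48.8% lay in 605 runs of at least 2 adjacent bins, and 30.5% in 267 runs of at least 3. Of the higher bins, 35.7% lay in 300 runs of at least 2 adjacent bins, and 20.7% in 112 runs of at least 3. The longest lower run was 19 bins at chr11:88390001-88580000 (GRCm38) inside Msi2, at 43.9% in IFC and 79.4% in IV. It was followed by 13 bins at chr7:96780001-96910000 inside Tenm4, a teneurin of neuronal cell adhesion, at 24.7% and 53.3%, and by 11 bins at chr5:66070001-66180000 over Rbm47, at 29.0% and 72.2%. The longest higher run was 26 bins at chr18:69370001-69630000 inside Tcf4, at 82.5% in IFC and 42.7% in IV. Next came 18 bins at chr18:13790001-13970000 inside Zfp521, at 76.5% and 36.5%, and 15 bins at chr19:57620001-57770000 inside Atrnl1, the attractin-like gene 1, at 59.1% and 20.0%. Without IV1 the logistic test called again 18, 12 and 10 bins of the lower runs and 25, 18 and 15 bins of the higher runs. IFC and IV libraries did not overlap in the means of these 6 runs, which were chosen from called bins. Of single bins, 84.6% of the lower and 78.8% of the higher called bins had no overlap, against 10.3% of all bins.

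Whole gene bodies were tested next, because oocyte methylation follows transcription units. Of 15579 autosomal protein-coding genes with at least 20 calls in every library, 89 (0.571%) were lower and 238 (1.53%) were higher in IFC by the logistic test with 20 points. Without IV1 the counts were 86 (0.552%) and 323 (2.07%), and without IFC4, the library with the lowest total level, the higher genes numbered 359. By limma 40 genes (0.257%) were lower and 63 (0.404%) higher. Few of the limma calls stood with 2 IV libraries: without IV1 they were 2 lower genes (0.0128%), Plpp4 and Ddx60, and 3 higher genes (0.0193%), Tcf4, Zfp521 and Crhr1, without IV2 they were 0 in either direction, where 103 lower and 211 higher genes had an unadjusted limma p under 0.05 with 20 points, and without IV3 they were 1 and 3. The dispersion was larger over gene bodies, with a median of 3.71. Among all genes, irrespective of any test, 654 (4.2%) had every IFC library below every IV library and 1386 (8.9%) had every IFC library above, and the median difference over all genes was 1.46 points. Of the called genes, 81 lower and 183 higher genes had no overlap between libraries of IFC and IV. From these, the 12 genes of each direction with the most called bins inside them are described first, so that their lack of overlap was fixed by the choice.

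Among the genes lower in IFC, the RNA-binding protein genes Msi2 and Rbm47 and the kinase gene Mapk10 carried long stretches of lower methylation. Msi2 (chr11:88339382-88718513, minus strand), which encodes the translational regulator Musashi 2, stood at 50.7%, 44.9%, 47.99% and 41.3% in IFC1 to IFC4 and at 73.3%, 72.6% and 73.5% in IV1 to IV3. All IFC libraries lay below all IV libraries, with a difference of -26.9 points (SE 2.90, limma adjusted p = 0.0121) and of -26.8 points without IV1, and 28 of its 38 tested bins were called lower. Over the 38 bins inside Msi2 the means were 46.2% in IFC and 73.8% in IV, and over 21 bins within 100 kb on either side they were 7.55% and 9.93%, a level that left most of those bins no room for a call lower in IFC.

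Rbm47 (chr5:66016549-66173118, minus strand), a cofactor of RNA editing by APOBEC1, stood at 45.4%, 34.0%, 40.03% and 44.5% in IFC and at 76.7%, 75.6% and 75.6% in IV. The difference was -34.98 points without overlap (SE 3.29, limma adjusted p = 0.0105), and 11 of 15 bins were called lower. Mapk10 (chr5:102907948-103211334, minus strand), which encodes the stress kinase JNK3, stood at 50.5%, 52.0%, 47.4% and 49.8% in IFC and at 75.0%, 78.3% and 73.7% in IV. Its difference of -25.7 points (SE 2.52, limma adjusted p = 0.0107) was again one without overlap, with 17 of 28 bins lower. Ddx60 (chr8:61928087-62038244, plus strand), a helicase gene of the antiviral response, stood at 27.2%, 29.0%, 27.1% and 22.9% in IFC and at 66.4%, 67.5% and 63.7% in IV, which was the widest gap of the 12 genes at -39.3 points (SE 2.60, limma adjusted p = 0.00330).

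At other lower genes the superovulated prepubertal oocytes lay near IV. Plpp4 (chr7:129257031-129391412, plus strand), a phospholipid phosphatase gene, stood at 56.3%, 52.1%, 56.4% and 55.9% in IFC and at 85.1%, 87.5% and 85.7% in IV, a difference of -30.95 points (SE 2.43, limma adjusted p = 0.00401). Its mean was 81.6% in SO and 87.5% in SOA, and 3 of the 5 SO libraries lay at 84.9% or higher and the lowest at 73.4%. Adam23 (chr1:63445891-63596276, plus strand), a cell adhesion gene of the ADAM family, stood at 38.5%, 41.8%, 45.0% and 33.5% in IFC and at 65.05%, 63.2% and 63.3% in IV, with means of 61.9% in SO and 67.2% in SOA. At Msi2 the SO mean was 49.5% and the SOA mean 73.8%, at Rbm47 they were 46.1% and 77.2%, and at Ddx60 37.2% and 69.5%. In those genes SO lay on the side of IFC and SOA on the side of IV. In all, SO lay nearer to IFC in 7 of the 12 genes and nearer to IV in 5 (Rims1, Plpp4, Angpt1, Cracr2a and Adam23), while SOA lay nearer to IV in all 12.

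The remaining 6 lower genes were likewise chosen among genes without overlap. Rims1, a scaffold of the presynaptic release site, had means of 42.3% in IFC and 66.2% in IV, Ldlrad3, a member of the LDL receptor family, 50.5% and 71.6%, Angpt1, a ligand of the endothelial receptor Tie2, 43.1% and 72.9%, and Cracr2a, a regulator of calcium entry, 33.2% and 59.7%. Stk32a, a protein kinase gene, stood at 14.3 to 22.4% in IFC and at 52.4%, 41.3% and 38.0% in IV. Fer1l6, a ferlin gene, stood at 15.7 to 22.4% in IFC and at 57.7%, 40.1% and 41.5% in IV, and its difference of -25.96 points became -20.3 without IV1. Fer1l6 was the 1 gene of the 12 that missed the limit in limma (adjusted p = 0.0539), while the logistic test called all 12 again without IV1. By limma without IV1, 2 of the 12 passed, and adjusted p ranged from 0.0461 to 0.0927.

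Among the genes higher in IFC, 3 transcription factor genes led. Tcf4 (chr18:69343356-69689079, plus strand), which encodes an E-protein of the basic helix-loop-helix class, stood at 82.6%, 86.3%, 84.02% and 78.7% in IFC1 to IFC4 and at 46.7%, 42.0% and 46.8% in IV1 to IV3. All IFC libraries lay above all IV libraries, by 37.8 points (SE 2.85, limma adjusted p = 0.00390), and 31 of 35 bins were called higher. Inside the gene the bins averaged 83.2% in IFC and 47.1% in IV, and within 100 kb on either side they averaged 13.99% and 14.7%, with 0 of 20 bins called.

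Zfp521 (chr18:13687013-13972787, minus strand), a zinc-finger gene of progenitor cells, stood at 64.1%, 67.5%, 66.5% and 60.8% in IFC and at 28.4%, 24.1% and 28.3% in IV. The difference was 37.7 points (SE 2.76, limma adjusted p = 0.00390) without overlap, and 26 of 28 bins were called. Klf12 (chr14:99870632-100284679, minus strand), a Krüppel-like repressor gene, was almost unmethylated in IV, at 16.1%, 9.73% and 9.61%, and stood at 36.8%, 38.2%, 33.2% and 32.8% in IFC (23.4 points, SE 2.89, limma adjusted p = 0.0192). Of its 38 bins 26 were called higher. IV1 was the highest IV library at Klf12, and without it the difference was 25.6 points.

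In these 3 genes the superovulated prepubertal oocytes resembled IFC in level. The SO and SOA means were 77.7% and 54.5% at Tcf4, 59.5% and 28.9% at Zfp521, and 33.3% and 9.57% at Klf12. Map2k6 (chr11:110399122-110525522, plus strand), which encodes an activator of the p38 stress kinases, did not follow that order. It stood at 53.9%, 42.2%, 52.5% and 52.5% in IFC and at 30.97%, 25.1% and 22.2% in IV (24.2 points, SE 3.77, limma adjusted p = 0.0350), with means of 31.98% in SO and 26.2% in SOA. It was the 1 gene of the 12 whose SO mean lay nearer to IV than to IFC, and all 12 had SOA nearer to IV.

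The other 8 higher genes hold metabolic, guidance and chromatin genes. Prkag2, a regulatory subunit of the energy sensor AMPK, had means of 58.4% in IFC and 32.1% in IV, and Mark1, a microtubule-regulating kinase gene, 57.9% and 26.01%. Bbx, an HMG-box gene, had 53.6% and 29.3%, and Fut10, a fucosyltransferase gene, 45.4% and 20.1%. The secreted axon guidance cues Sema3a and Slit2 had 46.0% against 23.1% and 39.1% against 16.1%. Sgpp2, a phosphatase gene of sphingosine 1-phosphate metabolism that overlaps Farsb in the annotation, had 74.9% and 43.7%. Tox2, another HMG-box gene, had 72.0% and 50.2%, a difference of 21.9 points that was 19.9 without IV1 and thus under the limit. All 12 genes passed the limits in limma (adjusted p = 0.00390 to 0.0370). Without IV1, 11 of the 12 passed in the logistic test, and 2 passed in limma, where adjusted p ranged from 0.0461 to 0.123.

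**Figure D3:**
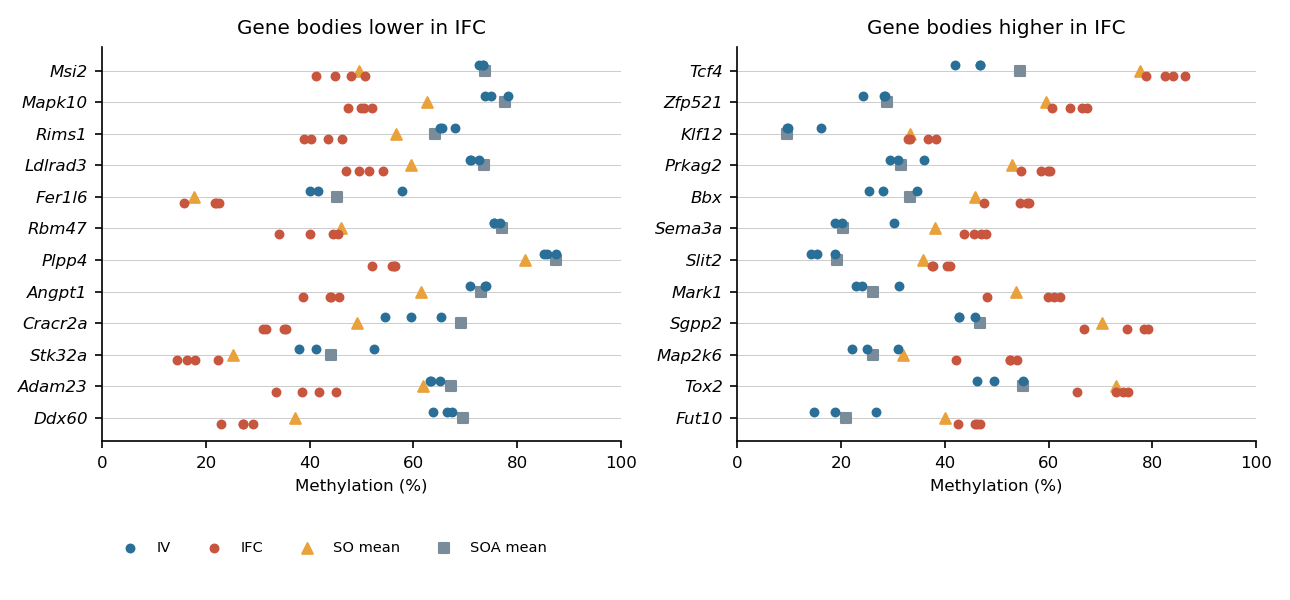
Gene-body methylation (%) of the 12 named genes lower in IFC and the 12 named genes higher in IFC. Circles are single IFC and IV libraries, triangles the SO mean (5 libraries) and squares the SOA mean (4 libraries). IFC and IV do not overlap in any of the genes, which the choice of genes required, and SO lies between the groups or next to IFC in most genes but next to IV at Plpp4, Adam23 and Map2k6.

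**Figure D4:**
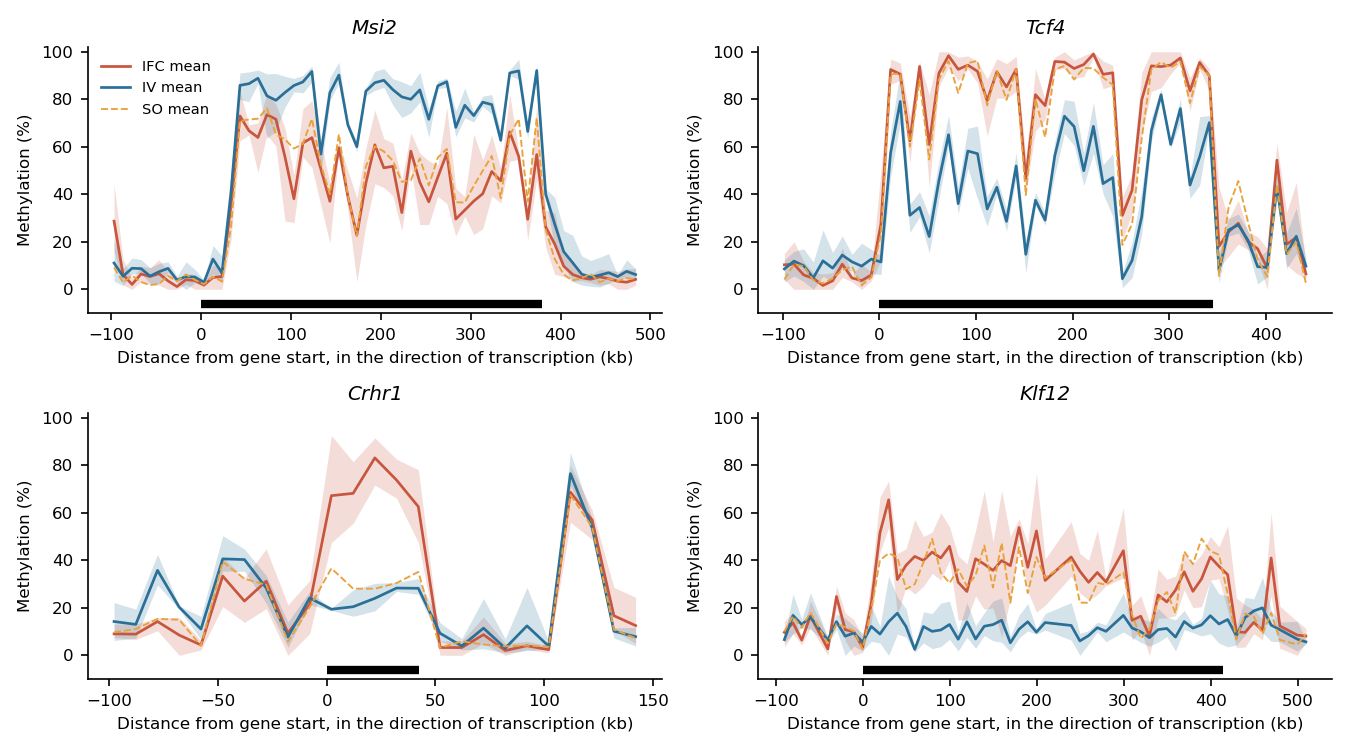
Methylation (%) of 10-kb bins along Msi2, Tcf4, Crhr1 and Klf12 and 100 kb on each side, against distance from the gene start in kb. Solid lines are IFC and IV means, shading spans the lowest to the highest library, the dashed line is the SO mean and the black bar is the gene. The IFC and IV means were 46.2% against 73.8% inside Msi2 and 83.2% against 47.1% inside Tcf4. Called inside the genes were 28 of 38 bins at Msi2, 31 of 35 at Tcf4, 5 of 5 at Crhr1 and 26 of 38 at Klf12. The lines run together in some other bins, as near the start of Msi2. Outside the genes 1 bin each was called at Crhr1 and Klf12.

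The called bins of each direction were also placed among all 16 libraries, as means over those bins only. Over the bins lower in IFC, the library means were 30.9 to 34.8% in IFC and 61.1 to 64.9% in IV, which the calls themselves fix. SO, which the calls did not use, lay between at 44.5 to 52.7% (48.6% ± 3.48, SD, n = 5), and SOA lay at 58.2 to 63.8% (60.6% ± 2.35, SD, n = 4). Because the bins were picked for a wide gap between IFC and IV, a group outside the choice tends to fall between them. Over the bins higher in IFC, IFC stood at 58.1 to 64.7% and IV at 31.8 to 37.1%, with SO at 48.4 to 53.7% (51.7% ± 2.11) and SOA at 34.8 to 40.1% (37.8% ± 2.22). SO and SOA libraries did not overlap in either set. Of the lower bins, 54.3% were lower in SO than in SOA by at least 10 points, against 6.15% of all bins, and 1.87% were higher by as much. Of the higher bins, 59.95% were higher in SO than in SOA by at least 10 points, against 6.52% of all bins, and 3.06% were lower. For the bins called without IV1 the shares were 53.8% in each direction. No test was made over these chosen bins.

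**Figure D5:**
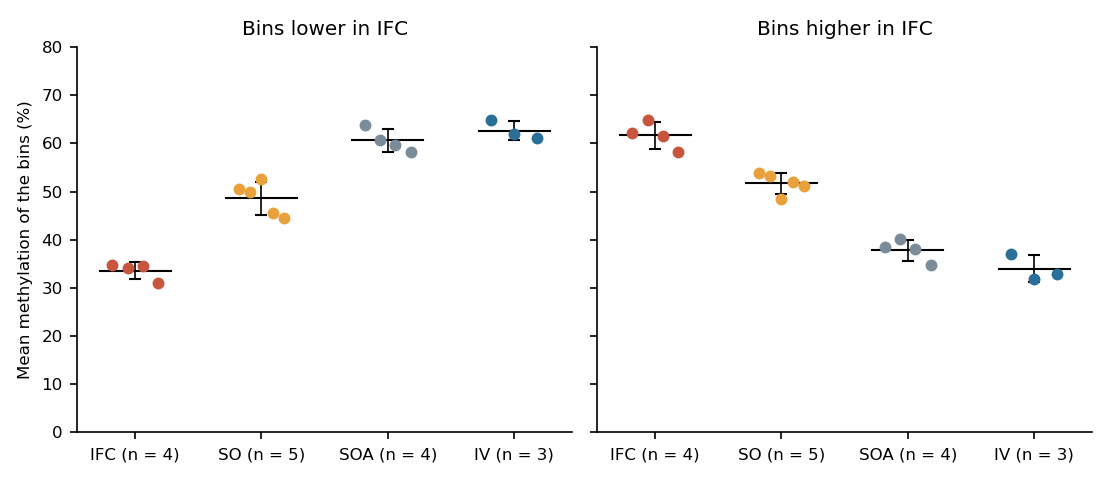
Mean methylation (%) over the bins called lower in IFC and over the bins called higher in IFC, in every library of the 4 groups. Points are libraries, horizontal lines are group means and bars are SD. The IFC and IV levels follow from the calls, while SO (48.6% and 51.7%) lies between IFC and IV and SOA (60.6% and 37.8%) lies next to IV. The choice of bins for a wide gap favours a place between IFC and IV.

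Over gene bodies SO and SOA were compared in the same way. Of the 89 lower genes, 49 were lower in SO than in SOA by at least 10 points and 1 was higher by as much. Of the 238 higher genes, 103 (43.3%) were higher in SO and 23 (9.66%) lower. Over all genes these shares were 5.76% lower and 4.01% higher.

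Receptors and signalling genes of the growing follicle were read as lists, against the 2.1% of all genes that were called in either direction. In a list of 29 tested genes of gonadotropin, EGF and steroid signalling, 1 gene was called, and the median difference of the list was -0.0849 points against 1.46 over all genes. That gene was Crhr1 (chr11:104132855-104175523, plus strand), the type 1 receptor of corticotropin-releasing hormone. Crhr1 is itself no gonadotropin, EGF or steroid receptor, and it is among the genes of the study read below. No other member of the list was called. Crhr1 is described here for its size of change. It stood at 73.9%, 82.7%, 75.7% and 71.3% in IFC1 to IFC4 and at 27.1%, 24.3% and 23.6% in IV1 to IV3, 50.9 points apart (SE 3.25, limma adjusted p = 0.00330), which was the largest increase of all genes tested. All 5 of its bins were called. Its means of 31.6% in SO and 28.9% in SOA lay near IV, and the highest SO library, SO1, stood at 50%.

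Among 29 TGF-beta and BMP genes, which include the signals oocytes exchange with granulosa cells, Smad9 was lower and Tgfbr1 was higher in IFC, beside 0.571% lower and 1.53% higher over all genes. Smad9, a transducer of BMP signals, stood at 19.1%, 17.8%, 14.1% and 11.6% in IFC and at 41.9%, 48.5% and 43.2% in IV (-28.9 points, SE 3.02, limma adjusted p = 0.0120). Tgfbr1, the type I receptor of TGF-beta, stood at 93.6%, 84.9%, 75.9% and 66.7% in IFC and at 61.4%, 63.1% and 52.1% in IV. Its wide spread in IFC left it outside the limit in limma (adjusted p = 0.194), and SOA stood at 83.2%, on the side of IFC. Among 27 Wnt genes Fzd5, a Frizzled receptor, was lower at 23.8%, 42.7%, 27.8% and 21.1% in IFC against 48%, 71.1% and 59.4% in IV, which limma did not call (adjusted p = 0.102). With 1 or 2 called genes a list, neither count is read as a feature of the list.

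The next 3 lists were counted over whole genes and over bins. Of 49 axon guidance and cell adhesion genes, 2 were called as whole genes, Sema3a and Slit2, both higher, and 181 of their 2293 tested bins were lower and 94 higher. Of 47 developmental transcription factors, 3 were called, Klf12, Zfp521 and Tcf4, all higher, and 44 of 1214 bins were lower and 111 higher. These 3 genes held 26, 26 and 31 of the higher bins. They are also among the genes of the study read below, which were chosen on these samples, so the count is no independent evidence. Over all genes 0.571% were lower and 1.53% higher, and over all bins the shares were 2.24% and 1.51%. Of 27 glutamate and GABA receptor genes 0 were called, as none reached 20 points, and 31 of 638 bins were lower and 33 higher.

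In 6 lists, of which 2 hold the genes that write, read and erase DNA and histone methylation, no gene was called, where 2.1% of all genes were. In each of these lists 0 members passed the logistic test with 20 points, and 0 passed limma, and no member differed by 20 points. At an unadjusted p under 0.05 without the limit, the logistic test passed 14 and limma 3 of 19 DNA methylation genes, 25 and 6 of 31 histone lysine methylation genes, 10 and 3 of 21 oocyte-specific and maternal effect genes, 10 and 3 of 25 meiosis and piRNA genes, 19 and 4 of 28 genes of insulin, PI3K and mTOR signalling, and 19 and 4 of the 27 glutamate and GABA receptor genes. Over all 15579 genes the logistic test passed 7386 and limma 2032. By bins, the histone list had 32 of 304 tested bins higher (10.5%) and 0 lower, against 1.51% and 2.24% of all bins. Of these 32 bins, 18 lay in Prdm16, 13 in Mecom, another gene of the PR-domain family, and 1 in Kdm5b, a histone demethylase gene. The DNA methylation list had 2 of 76 bins higher and 0 lower. The members with the widest gap were Tdg, a DNA glycosylase of demethylation, at 31.5% ± 6.52 over the IFC libraries and 13.7% ± 4.73 over the IV libraries (limma adjusted p = 0.110), and Nobox, a homeobox regulator of the growing oocyte, at 33.2% ± 9.54 and 52.9% ± 10.8 (limma adjusted p = 0.243). Without IV1, Tdg and, in the histone list, Prdm9, which sets recombination hotspots in meiosis, were called higher, both chosen here after their values were seen. The median differences were 5.21 points for the DNA methylation list, 6.04 for the histone list and 0.123 for the oocyte list. They were 3.66 for the meiosis and piRNA list, 3.91 for the insulin, PI3K and mTOR list and 1.32 for the glutamate and GABA receptor list. Over all genes the median was 1.46 points.

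A selection of 16 genes from the text and supplements of the study was read here in IFC against IV. It leaves out others that the study names, such as Fzd5, described above, and Nkpd1, a gene with an NTPase domain that was called higher at 82.8% in IFC and 49.4% in IV (33.4 points, limma adjusted p = 0.0192). At Nkpd1 the means of 68.9% in SO and 69.0% in SOA both lay nearer to IFC than to IV. Since the 16 genes were chosen on these samples they are no independent evidence. Of the 16, Msi2 was called lower and Crhr1, Map2k6, Klf12, Zfp521 and Tcf4 higher, beside 0.571% lower and 1.53% higher over all genes. Several of the others held called bins while the gene as a whole stayed under 20 points. Sox5, a transcription factor gene of the SoxD group, had 41 of 94 bins called lower, with gene means of 34.8% ± 4.09 in IFC and 50.8% ± 4.08 in IV. Etl4, Myo16, an unconventional myosin gene, and Akap6, an anchor protein of protein kinase A, had 27, 27 and 20 bins called lower. Their gene means differed by -17.8, -19.8 and -19.2 points (IFC minus IV), so that Myo16 and Akap6 lay just under the limit. Over the 16 genes together 160 of 707 tested bins were lower and 131 higher, beside 2.24% and 1.51% of all bins. Prdm16, a zinc-finger gene with a PR domain, had 18 bins called higher (54.6% against 37.0%), and Atrnl1 had 16 higher and 2 lower bins. Cdh13, the T-cadherin gene, had 13 lower bins of 104, and Adgrl2, an adhesion receptor gene, 2 of 17. Soga1 and Sdk1, at 46.6% against 50.7% and 80.4% against 78.5%, had 0 called bins, and Soga1, at -4.15 points, turned to 0.179 points without IV1.

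CpG-dense regions, which are not the same as annotated CpG islands, were compared as runs of at least 50 CpGs of the GRCm38 sequence that lie on average no more than 20 bp apart. Of 5110 regions with at least 20 calls in every library, 4691 stood below 20% in IV and 122 above 80%, and the mean over regions was 7.21 to 8.30% in the IFC libraries and 7.98 to 8.81% in the IV libraries. The median region tested held 46.5 calls in an IFC library and 107 in an IV library. Neighbouring calls can come from the same read, so the percentage of a single region, called or not, may rest on few reads. By the logistic test with 20 points, 38 regions (0.744%) were lower in IFC and 44 (0.861%) higher. Without IV1 they numbered 43 (0.841%) and 42 (0.822%), and by limma 5 (0.0978%) and 4 (0.0783%). By limma without IV1 they numbered 0 (0%) and 1 (0.0196%), where 28 lower and 24 higher regions had an unadjusted p under 0.05 with 20 points. A gene start lay within 1 kb of 22 of the lower regions (57.9%) and 27 of the higher regions (61.4%), against 80.8% of all regions tested.

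Among called regions without overlap, the higher region with the largest gap lay in an intron of Emx1, a homeobox gene of the forebrain (chr6:85189354-85191432, 107 CpGs). It stood at 96.97%, 100%, 96.8% and 88.9% in IFC1 to IFC4 and at 33.7%, 19.4% and 9.23% in IV1 to IV3. All IFC libraries were nearly fully methylated and all IV libraries were low, 74.9 points apart (limma adjusted p = 0.0134) and 81.3 points apart without IV1. The means were 38.9% in SO and 40.03% in SOA, nearer to IV, with SO libraries from 15% to 55.8%. The lower region with the largest gap lay at the first exon of Nkain2, which encodes a partner of the sodium-potassium pump (chr10:32889243-32890992, 100 CpGs). It stood at 10.9%, 0%, 15.2% and 8.89% in IFC and at 65.6%, 78.9% and 96.1% in IV (-71.5 points, limma adjusted p = 0.0274, and -78.7 points without IV1), with means of 59.7% in SO and 98.1% in SOA. The SO libraries there ran from 13.4% in SO4 to 88.5% in SO3.

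The 300 bases at the middle of each of these regions are shown because they carry the strongest opposite changes, and the 300-base RefSeq promoter of Crhr1 because it lies at the start of the gene body with the largest increase. All are plus-strand sequence of GRCm38 written 5′ to 3′, with every CpG, the site that can carry the mark on both strands, in capitals. The Emx1 stretch (chr6:85190244-85190543) holds 26 CpGs, the Nkain2 stretch (chr10:32889968-32890267) 39 and the Crhr1 promoter (chr11:104132531-104132830) 31.
Emx1: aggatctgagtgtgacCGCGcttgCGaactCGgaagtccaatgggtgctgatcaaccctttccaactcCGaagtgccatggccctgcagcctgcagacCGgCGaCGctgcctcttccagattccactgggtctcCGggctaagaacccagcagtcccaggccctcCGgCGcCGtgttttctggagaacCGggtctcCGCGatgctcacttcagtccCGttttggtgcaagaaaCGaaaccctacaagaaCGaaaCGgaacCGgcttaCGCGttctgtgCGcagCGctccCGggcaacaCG
Nkain2: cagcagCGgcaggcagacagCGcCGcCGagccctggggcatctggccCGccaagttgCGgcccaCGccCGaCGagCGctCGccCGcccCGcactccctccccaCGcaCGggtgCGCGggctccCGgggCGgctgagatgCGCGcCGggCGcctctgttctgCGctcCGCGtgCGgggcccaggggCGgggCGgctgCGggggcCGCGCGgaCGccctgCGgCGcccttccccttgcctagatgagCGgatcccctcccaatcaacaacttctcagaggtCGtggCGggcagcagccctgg
Crhr1: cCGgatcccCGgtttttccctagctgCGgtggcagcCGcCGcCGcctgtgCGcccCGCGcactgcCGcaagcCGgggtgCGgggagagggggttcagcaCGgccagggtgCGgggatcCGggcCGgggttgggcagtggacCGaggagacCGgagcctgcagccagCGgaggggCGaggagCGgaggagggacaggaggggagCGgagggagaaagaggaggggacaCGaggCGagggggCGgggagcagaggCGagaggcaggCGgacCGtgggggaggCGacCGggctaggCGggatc

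Within the printed Emx1 stretch, 12 of 13 calls were methylated in IFC1, 5 of 5 in IFC2 and 5 of 5 in IFC4, while IFC3 had no call there, against 1 of 35 in IV1, 5 of 27 in IV2 and 1 of 22 in IV3. Within the Nkain2 stretch, 2 of 18, 0 of 17, 2 of 16 and 2 of 17 calls were methylated in IFC1 to IFC4, against 18 of 29 in IV2 and 20 of 22 in IV3, with no call in IV1. Within the Crhr1 promoter, 13 of 16 calls were methylated in IFC1, 6 of 6 in IFC2 and 1 of 12 in IFC4, against 0 of 29 in IV2 and 0 of 41 in IV3. Neighbouring calls in these short stretches can come from the same read. The differing shares of IFC1, IFC2 and IFC4 at this promoter, on 16, 6 and 12 calls, may therefore rest on few reads. Whether the pools differ there was not tested. Over the Crhr1 gene body the lowest IFC library stood at 71.3%. IFC3 and IV1 had no call in the promoter.

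The CpG-dense region at the Crhr1 start as a whole (chr11:104131632-104134485, 189 CpGs) stood at 63.6%, 96.9%, 51.1% and 36% in IFC and at 6.14%, 2.42% and 1.77% in IV. Its wide range in IFC left it uncalled by limma (adjusted p = 0.367). The groups did not overlap, which the choice of these regions required. The third higher region covered exon 2 of Lrfn1, a synaptic adhesion gene, inside the span of Samd4b (chr7:28466389-28468468), and stood at 75.7%, 72.7%, 58.5% and 53.1% in IFC and at 20.2%, 10.3% and 10.9% in IV (limma adjusted p = 0.0484). The means there were 52.9% in SO, with libraries from 35.7 to 80.6%, and 15.7% in SOA, with libraries from 0 to 39.1%.

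The next 2 lower regions by size of the gap lay at promoters. The region shared by the first exons of Cnot7, a deadenylase subunit of the CCR4-NOT complex, and Vps37a, an ESCRT subunit (chr8:40510436-40512868), stood at 6.58%, 6.94%, 31.0% and 11.1% in IFC and at 62.8%, 72.1% and 89.9% in IV (limma adjusted p = 0.0899). The means were 61.5% in SO and 64.1% in SOA, with single libraries from 38% to 93.8%. The region at the first exon of Eef2k, the kinase of elongation factor 2 (chr7:120842190-120844230), stood at 13.6%, 59.0%, 26.8% and 15.8% in IFC and at 78.8%, 70.5% and 94.9% in IV (limma adjusted p = 0.367), with means of 60.9% in SO (39.3 to 81.0%) and 93.0% in SOA (89.6 to 100%). IFC2 lay far above the other IFC libraries at Eef2k but below every IV library, which the choice of these regions required.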

How the data were processed

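Each of the 16 PBAT libraries came from 1 pool of oocytes. The limma and permutation p-values rest on the spread between libraries, which holds differences between pools and counting error together. The logistic p-values rest on counting error alone. The submitters' processing notes name Trim Galore 0.4.4, cutadapt 1.9.1, Bismark 0.19.0 and GRCm38, and the authors removed duplicate reads after alignment. The deposited tables give, for every covered CpG position and strand, the counts of methylated and of unmethylated reads and the percent these give, not normalized. Here these counts were summed over 10-kb autosomal bins (at least 10 calls in each of the 7 libraries), gene bodies of GENCODE M21 protein-coding genes and CpG-dense regions (at least 20). Features were tested by a logistic likelihood-ratio test with Benjamini-Hochberg adjustment over all features at 0.05 and a difference of group means of at least 20 points, as in the study's methods, and by limma 3.58.1 (R 4.3.3) on library percentages, with no term but group. Single values per library were compared by exact permutation tests. The tests were tested on simulated data. Named genes were the 12 of each direction with the most called bins among called genes without overlap, list members that were called, and 16 genes selected from those the study names. Also described were, in each direction, the 3 longest runs and the 3 CpG-dense regions of widest gap among called regions without overlap. The members and lists were chosen with earlier results of these data known. CpG island coordinates were not used here. Promoter and region sequences came from RefSeq and its GRCm38.p6 genome. Calculations used Python 3.11.15, numpy 2.4.6, pandas 2.3.3, scipy 1.17.1 and matplotlib 3.10.9. Alternatives were other tests, limits, minimum calls, depth, quantitation, bin positions and leaving out each library. Chromosomes X and Y were left out.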

Additional observations from a re-analysis of the deposited data

Results flagged for a closer look

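In groups of 4 or 5 libraries, the lowest or highest library was compared with the gap to its neighbour over the whole range (Dixon's ratio, 95% level). Of 130 groups of values tested, 13 (10%) held such a library, where chance gives about 1 in 20. The 3 IV libraries were too few for this check.

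IFC4 was low in 5 of these. It stood at 89.8% over methylated bins (the other IFC libraries at 92.1 to 92.3%), at 15.7% over Fer1l6 (21.8 to 22.4%), at 48.2% over Mark1 (59.9 to 62.3%), at 46.1% over Prdm16 (56.8 to 58.9%) and at 28.7% over Sox5 (36.4 to 37.5%). IFC4 also had the lowest total level of the 7 libraries, 37.5%. IFC2, the shallowest of the 7 IFC and IV libraries, stood at 52.1% over Plpp4 (55.9 to 56.4%) and at 42.2% over Map2k6 (52.5 to 53.9%).

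Among the superovulated libraries, SO3 was lower than the other SO libraries at Tcf4 (75.6%, others 77.9 to 78.7%) and Zfp521 (54.0%, others 59.9 to 62.0%). SO1 stood at 50% over Crhr1, where the other SO libraries ranged from 23.6 to 29.8% and the IFC libraries from 71.3 to 82.7%. SOA1 was high at Msi2 (79.8%, others 71.5 to 72.1%), SOA4 low at Cracr2a (60.1%, others 72.1 to 72.6%) and SOA2 high at Atrnl1 (36.0%, others 31.8 to 32.4%).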

How the results depend on the processing

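The count of calls depended most on the test. By limma 2081 bins had an adjusted p under 0.05, with 1293 lower and 719 higher in IFC at 20 points, and the genes numbered 40 and 63 and the CpG-dense regions 5 and 4. The quasi-binomial F test with the dispersion of each feature gave 12 bins (2 lower, 1 higher), 6 and 3 genes, and 2 and 0 CpG-dense regions, where 28 lower and 23 higher regions had an unadjusted p under 0.05. With squeezed dispersions it gave 3615 bins (1976, 1169), 50 and 100 genes, and 7 and 9 regions. A limit of 30 points left 1311 and 681 bins, 21 and 38 genes, and 16 and 15 regions. At least 20 calls per bin left 1848 and 1311 bins, at least 40 calls left 58 and 155 genes and 8 and 4 regions, and at least 10 calls gave 76 and 98 regions. Thinning to 5311009 calls left 8700 bins with an adjusted p under 0.05 and 17 and 16 regions. Runs of at least 30 CpGs at 15 bp gave 18 and 14 regions, which are fewer and shorter. Stricter minimums and limits leave fewer features by construction. Over bins called by limma, an alternative chosen after seeing the data, SO minus SOA was -15.6 points (lower) and 19.8 (higher).

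Leaving out each library in turn gave 16067 to 23940 bins with an adjusted p under 0.05, 3307 to 4381 lower and 2363 to 3195 higher bins, 86 to 128 lower and 237 to 359 higher genes, and 37 to 46 lower and 42 to 56 higher regions. The total difference ranged from 0.280 to 2.53 points, that of methylated bins from 0.161 (without IV1) to 1.59, of unmethylated bins from -2.79 to 1.37 and of intermediate bins from -1.28 to 0.602. The last 2 turned sign, both without IV1 and the intermediate bins also without IFC4 (0.383). Soga1 ranged from -7.24 to 0.179, the latter without IV1. The cause was not tested. Limma with each library left out, chosen after seeing the data, gave 315 to 1189 lower and 154 to 706 higher bins, 0 to 37 lower and 0 to 99 higher genes, and 0 to 3 lower and 0 to 2 higher regions. Its lowest gene counts (0 to 2 lower, 0 to 3 higher) came without IV1, IV2 or IV3, each of which leaves 2 IV libraries. It gave 19 lower and 13 higher genes without IFC1, 20 and 29 without IFC3, 34 higher without IFC2 and 99 higher without IFC4. At an unadjusted p under 0.05 with 20 points these fits passed 73 to 117 lower and 211 to 334 higher genes, and 28 to 39 lower and 21 to 38 higher regions. Among single genes, runs and regions no other alternative turned a direction.

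The replicate numbers of IFC and IV do not pair the libraries, since deviations from the group means correlated at -0.0416, -0.00539 and 0.0217 for equal numbers. With the number as a replicate block over libraries 1 to 3, 19639 bins passed the test, with 3517 lower and 3175 higher, 87 and 359 genes, and 37 and 56 regions. IFC4, which has no partner, was left out of that fit.

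Depth limits single regions. The IFC libraries hold few calls per region, and an uncalled region or short gene is not shown to be equal.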

Other observations

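Among the genes with the widest gaps that were called by both the logistic test and limma, without overlap of libraries, 5 outside the rule for named genes are given here, chosen after their values were seen. Pipox, an enzyme gene of pipecolic acid breakdown, stood at 24.6%, 32.9%, 23.1% and 11.8% in IFC and at 74.4%, 80.8% and 72.5% in IV, the largest decrease of all genes tested (-52.8 points, limma adjusted p = 0.0105). SO and SOA stood at 76.3% and 79.7%, next to IV. Xdh, the xanthine dehydrogenase gene of purine breakdown, stood at 43.2 to 51.5% in IFC and at 84.01 to 84.8% in IV, with SO between at 64.6%. Pygm, the muscle glycogen phosphorylase gene, stood at 82.7 to 96% in IFC and at 33.3 to 50.3% in IV, and SO (53.3%) and SOA (50.9%) lay next to IV. Cnr1, the cannabinoid receptor 1 gene, stood at 54.8%, 49.4%, 36.8% and 60.3% in IFC and at 14.2%, 7.32% and 2.87% in IV, and Drd3, a dopamine receptor gene, at 43.3 to 64.7% and 14.3 to 26.9%. At both receptor genes SO (42.2% and 44.3%) lay near IFC and SOA (7.94% and 21.8%) near IV. These 5 genes do not stand for all genes of this kind. At Rwdd2a, Epm2aip1 and Nkpd1, which met the same criteria, the SOA mean lay nearer to IFC than to IV.

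Some long runs lay over gene clusters or outside protein-coding genes. A run of 10 bins at chr7:43920001-44020000 over kallikrein protease genes (Klk15 and members of the Klk1b family, whose close similarity can affect read placement) stood at 17.5 to 25.2% in IFC and at 53.2 to 59.4% in IV, with SO at 23.4% and SOA at 59.8%. A run of 10 bins at chr13:44360001-44460000 that overlaps no protein-coding gene stood at 9.51 to 11.4% in IFC and at 52.3%, 44.9% and 41.2% in IV, with SO at 15% and SOA at 43.4%. Limma called all 10 of those bins and 7 of the 10 kallikrein bins. Genes with 2 or more called bins in each direction numbered 7.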
